A study of Arabidopsis thaliana with 6 samples.

Results

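The nuclear genes for plastid ribosomal proteins are described here in 6 RNA sequencing libraries from young rosette leaves of Arabidopsis thaliana. The members are 32 loci listed by name as proteins of the plastid ribosome, 23 of the large subunit and 9 of the small subunit, out of 33602 gene models in the deposited tables. All 32 were present in the tables and all passed the filter on low counts. The reference annotation calls 31 of the 32 products ribosomal, and names the remaining locus, AT5G54600, RPL24. They are called here PRPL or PRPS with the number of the protein family, and PSRP5 is a protein of the large subunit that bacteria lack.

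The libraries form 3 groups of 2. The libraries labelled FLV border are from the white margin of leaves of the flv/dot4 mutant, from the T-DNA stock salk_139995. Those labelled WT border are from the green margin of leaves of wild-type Col-0, and those labelled WT centre are from the middle of leaves of the same wild type. All plants grew untreated on soil to Boyes stage 1.13, at 18 to 21 °C and at most 90 µE of light. The mutant is a single insertion line, so an effect of the gene and one of the line cannot be told apart. In that order the groups are called here the mutant-labelled margin, the wild-type margin and the wild-type centre. The labels do not say how many leaves or plants went into a library, nor that replicates are separate plants, so p-values measure the spread between these libraries. In such bulk samples fewer cells of a type and less RNA per cell cannot be told apart.

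The plastid ribosome is of the bacterial kind and makes the proteins encoded in the plastid genome, among them core subunits of the photosystems and the large subunit of Rubisco. Some of its own proteins are encoded in the plastid, and the others, including all members here, are encoded in the nucleus, made in the cytosol and imported. Mutants that lack single plastid ribosomal proteins range from pale green plants to seeds that stop at the embryo stage, and several loci here carry the symbol EMB or emb for embryo defective. DOT4 is a pentatricopeptide repeat protein needed to edit the plastid transcript of rpoC1, a subunit of the plastid RNA polymerase.

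The libraries held from 20448315 to 33214552 counts. Values are CPM, counts per 1000000 of a library size scaled by TMM, with factors of 1.71 and 1.73 for the mutant-labelled margin, 1.22 and 1.14 for the wild-type margin and 0.551 and 0.439 for the wild-type centre. The factors differ by group. The targeted gene, DOT4, had 10.2 and 12.5 CPM in the mutant-labelled margin, 0.516 and 1.81 in the wild-type margin and 0.444 and 0.412 in the wild-type centre. It was higher, not lower, in the libraries labelled as mutant. A count over the whole gene does not tell whether a T-DNA interrupts it, so this value does not check the labels, and every direction given below for the mutant-labelled margin rests on them.

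The 32 genes together took 0.934 and 1.05% of all counts in the mutant-labelled margin, 1.60 and 1.01% in the wild-type margin and 0.529 and 0.62% in the wild-type centre. The lowest member had 344 counts in the library where it was lowest, so counting error is small for the values of the members. Some genes of other lists named below have far lower levels. The members lie on all 5 chromosomes, with 11 on chromosome 1, 4 on chromosome 2, 9 on chromosome 3, 2 on chromosome 4 and 6 on chromosome 5. No members were next to each other. The closest pair, PRPL31 and PRPS9, were 37 genes apart in the order along the chromosome.

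Levels of different genes were compared per length, as CPM per kb of the gene model length that the tables give, which runs from 626 to 1442 bases for the large subunit and from 710 to 1562 for the small subunit. Only 4 of the 32 members have a TAIR10.1 transcript of exactly that length. For most members the model counted thus differs from the one behind the positions, exon numbers and upstream windows given here. Although the proteins occur in equal numbers in a ribosome apart from the L12 stalk, the levels per kb spanned a factor of 24.4 and 14.2 in the mutant-labelled margin libraries, 13.2 and 18 in the wild-type margin and 74.7 and 73.5 in the wild-type centre. PRPL29, which in bacteria sits beside the exit of the peptide tunnel, had the highest mean level over the 6 libraries. It stood at 863 and 659 CPM per kb in the mutant-labelled margin, 1440 and 1100 in the wild-type margin and 982 and 2250 in the wild-type centre. PSRP5 came next, at 310 and 407, 671 and 450, and 1950 and 1240 CPM per kb in the same order of groups. It was the member with the highest level in the first centre library, while PRPL29 was highest in the other 5 libraries.

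PRPL17, another neighbour of the tunnel exit in bacteria, had the next highest mean, with 266 and 248 CPM per kb in the mutant-labelled margin, 649 and 433 in the wild-type margin and 216 and 1080 in the wild-type centre. The lowest member was PRPL19A (AT4G17560), of a family that bridges the subunits in bacteria, with 35.4 and 46.3 CPM per kb in the mutant-labelled margin, 108 and 61.3 in the wild-type margin and 26.1 and 30.7 in the wild-type centre. It was last of the 32 in all 6 libraries. Its paralog PRPL19B (AT5G47190) is 79.8% identical to it in coding sequence, with a longest identical run of 43 bases. PRPS10 was the lowest member of the small subunit, with 62.8 and 84 CPM per kb in the mutant-labelled margin, 159 and 136 in the wild-type margin and 69 and 102 in the wild-type centre. PRPL28 was also low, at 75.2 and 109, 130 and 153, and 175 and 129 CPM per kb.

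PRPL12C (AT3G27850) codes for the L12 stalk protein, which recruits translation factors. Its coding sequence is 91.1% identical to that of PRPL12A (AT3G27830), with an identical run of 255 bases, and the counting of reads that fit both is not given in the sources used here. Its level, 216 and 213 CPM per kb in the mutant-labelled margin, 580 and 461 in the wild-type margin and 800 and 516 in the wild-type centre, is therefore uncertain.

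**Figure D1:**
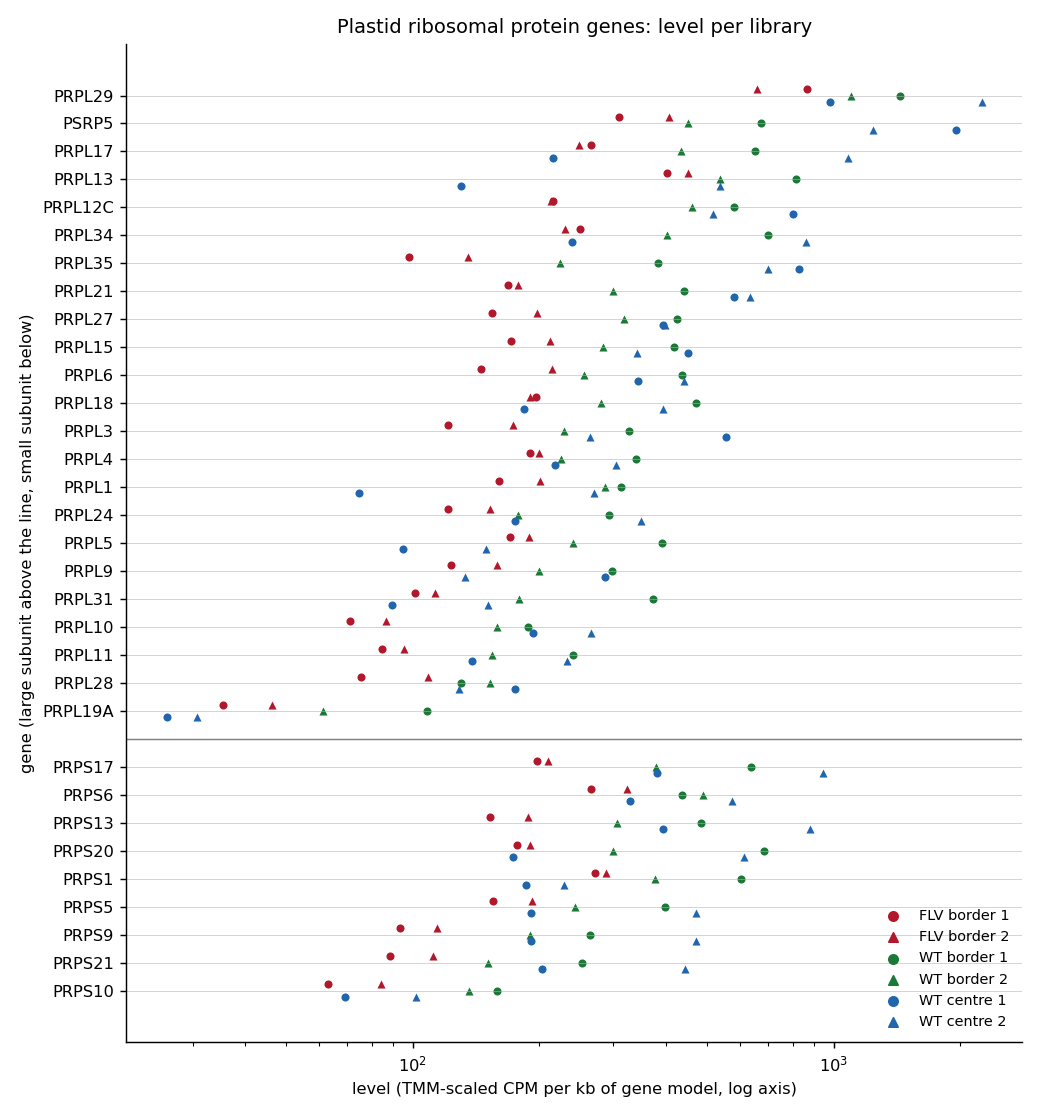
Level of each of the 32 genes in each library, as TMM-scaled CPM per kb of gene model on a log axis. Circles are library 1 and triangles library 2 of the mutant-labelled margin (red), the wild-type margin (green) and the wild-type centre (blue), with the large subunit above the line and the small subunit below it. Both red points lie left of both green points for 32 of 32 genes, while the blue points spread to either side.

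The order of the genes by level was alike in the 4 margin libraries and less so in the centre. As a description across the 32 genes, which share each library, Spearman's rho of the level per kb ranged from 0.854 to 0.941 between margin libraries, mutant-labelled and wild-type alike. It was 0.625 between the centre libraries themselves, from 0.364 to 0.495 between the first centre library and the margin libraries, and from 0.605 to 0.76 between the second and the margin libraries.

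The libraries within a group also differed over the members as a whole. In the wild-type margin, 30 of the 32 genes were higher in the first library than in the second, with a median log2 ratio of 0.60, and the exceptions were PRPL28 and PRPS6. Over all 21852 genes tested the median was -0.01. In the mutant-labelled margin 27 of 32 were higher in the second library, with a median of -0.29 for the first over the second. Most of the 32 genes thus differed in the same direction between replicates.

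The centre libraries differed in another way. The first over the second gave a median log2 ratio of -0.70 with a standard deviation over the genes of 0.90, against 0.21 in the mutant-labelled margin and 0.30 in the wild-type margin. PRPL17 had 177 CPM in the first and 885 in the second, a log2 ratio of -2.32, and PRPL13, an early assembly protein in bacteria, had 133 and 548 CPM. PRPL9 went the opposite way, with 263 and 122 CPM. In the wild-type centre 14 of the 32 genes differed more than 2-fold between the libraries, against 2 in the wild-type margin and 0 in the mutant-labelled margin. Over all genes tested the standard deviation of the same log2 ratio was 1.42 in the wild-type centre, 0.90 in the wild-type margin and 0.80 in the mutant-labelled margin.

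**Figure D2:**
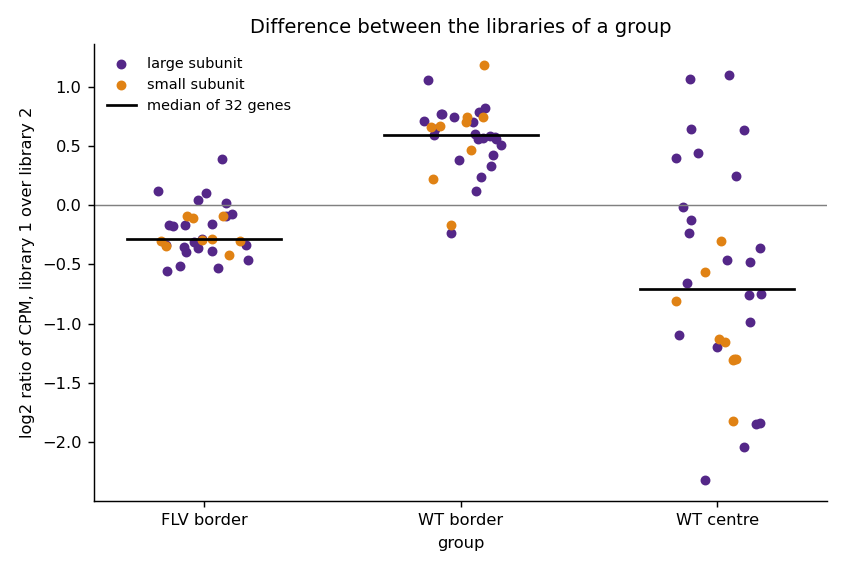
Log2 ratio of CPM of the first over the second library in each group for the 32 genes, by subunit, with the median as a black line. The medians lie at -0.29 in the mutant-labelled margin, 0.60 in the wild-type margin and -0.70 in the wild-type centre, and the spread is widest in the wild-type centre.

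The first comparison sets the white margin of the mutant beside the green margin of Col-0. All 32 genes had lower values in the libraries labelled as mutant, and for all 32 the higher of these libraries stayed below the lower of the wild-type margin, as for 18.7% of all genes tested (19.3% in the opposite direction). The median log2 fold change was -0.98, a level 0.505 times that of the wild-type margin, against a median of 0.02 over all genes tested. A negative fold change was found for 48.4% of all genes. No member passed the test, however. The adjusted p-values of edgeR's quasi-likelihood test ran from 0.824 to 1, where 0.0595% of all genes were called, 0.00458% lower and 0.0549% higher. At an unadjusted p under 0.05, 4 of the 32 genes were lower and 0 higher, all 4 of the large subunit, where 2.57% of all genes were lower and 2.97% higher. DESeq2 and voom likewise called 0 members, with smallest adjusted p of 0.275 and 0.687, where DESeq2 called 0.339% of all genes lower and 0.549% higher and voom 0.0686% in either direction. With the library number as a block the smallest adjusted p was 0.791. The rRNA left after depletion also differed between these groups. It made 142 and 149 counts at the 15 rRNA loci per 1000000 in the mutant-labelled margin against 0.456 and 9.26 in the wild-type margin. These loci were left out of the library sizes. With them kept, the median of the members was -0.985 and all 32 fold changes were negative. Beyond this refit, the part of the rRNA in the lower values was not tested.

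Of the large subunit, PRPL35 had the smallest p. PRPL35 (AT2G24090, chromosome 2 from 10241875 to 10243674 on the + strand in the TAIR10.1 build, 3 exons) had 69.7 and 96.1 CPM in the mutant-labelled margin, 272 and 159 in the wild-type margin and 590 and 496 in the wild-type centre. The groups were in steps without overlap, lowest in the white margin and highest in the wild-type centre. Its log2 fold change of the mutant-labelled over the wild-type margin was -1.38 ± 0.53 (SE; edgeR adjusted p = 0.824). PRPL31 (AT1G75350, chromosome 1 from 28272071 to 28273009, + strand, 2 exons), in bacteria part of a bridge between the subunits, had 67.8 and 76.2 CPM in the mutant-labelled margin, 250 and 120 in the wild-type margin and 60.1 and 102 in the wild-type centre. Here the white margin lay within the range of the wild-type centre, and only the green margin was higher. The fold change was -1.36 ± 0.54 (edgeR adjusted p = 0.84).

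PRPL10 and PRPL12C form the stalk, with L10 as its base, and PRPL11 sits beside it where GTPase factors bind. PRPL10 (AT5G13510, chromosome 5 from 4341262 to 4342095, + strand, 1 exon) had 59.2 and 72 CPM in the mutant-labelled margin, 157 and 133 in the wild-type margin and 161 and 222 in the wild-type centre. PRPL12C had 189 and 186 CPM, 508 and 403, and 700 and 451 in the same groups. PRPL11 (AT1G32990) had 72.2 and 81.6 CPM, 206 and 132, and 118 and 199. For these stalk genes the mutant-labelled margin libraries were the lowest of the 6 libraries. The log2 fold changes over the wild-type margin were -1.14 ± 0.47 for PRPL10, -1.28 ± 0.53 for PRPL12C and -1.13 ± 0.51 for PRPL11 (edgeR adjusted p = 0.876, 0.878 and 0.905). The counts of PRPL12A, which can share reads with PRPL12C, gave -1.18 ± 0.52.

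The smallest difference of all members was that of PRPL4, in bacteria a protein of the tunnel wall. PRPL4 (AT1G07320, chromosome 1 from 2248967 to 2250529, + strand) had 237 and 249 CPM in the mutant-labelled margin, 424 and 281 in the wild-type margin and 272 and 380 in the wild-type centre, a log2 fold change of -0.54 ± 0.52 (edgeR adjusted p = 1). The abundant PRPL29 had 665 and 508 CPM against 1110 and 848, at -0.74 ± 0.64, and PSRP5 had 215 and 282 against 465 and 312, at -0.65 ± 0.57. The rRNA-binding partners PRPL5 and PRPL18, which in bacteria carry the 5S rRNA, stood at -0.82 ± 0.52 and -0.96 ± 0.56. All 23 large subunit genes lay between -1.38 and -0.54.

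Of the small subunit, PRPS17 (AT1G79850, chromosome 1 from 30041243 to 30041952, - strand, 1 exon), which binds early to the 16S rRNA in bacteria, had 140 and 149 CPM in the mutant-labelled margin, 451 and 268 in the wild-type margin and 271 and 671 in the wild-type centre. Its log2 fold change was -1.32 ± 0.61 (edgeR adjusted p = 0.922). PRPS10 (AT3G13120) had 64.5 and 86.3 CPM, 164 and 140, and 70.9 and 105 in the same groups, at -1.01 ± 0.47 (adjusted p = 0.927, edgeR). PRPS13 (AT5G14320), which contacts the tRNA in bacteria, had 128 and 158, 406 and 257, and 331 and 736 CPM, at -1.21 ± 0.59 (adjusted p = 0.947, edgeR).

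The largest difference of any member was that of PRPS20 (AT3G15190, chromosome 3 from 5116021 to 5117615, + strand, 3 exons), with 157 and 169 CPM in the mutant-labelled margin, 608 and 266 in the wild-type margin and 154 and 543 in the wild-type centre. The fold change was -1.43 ± 0.71 (edgeR adjusted p = 0.961), and the wild-type margin libraries differed from each other by a log2 ratio of 1.19, the widest such gap of the members. PRPS1, the mRNA-binding protein of the small subunit, had 423 and 450 CPM against 940 and 589, at -0.81 ± 0.55. PRPS21 (GHS1), whose mutant was named for hypersensitivity to glucose, had 74.4 and 94.7 against 213 and 127, at -1.01 ± 0.56. PRPS6 had 229 and 279 against 377 and 423, at -0.65 ± 0.53.

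**Figure D3:**
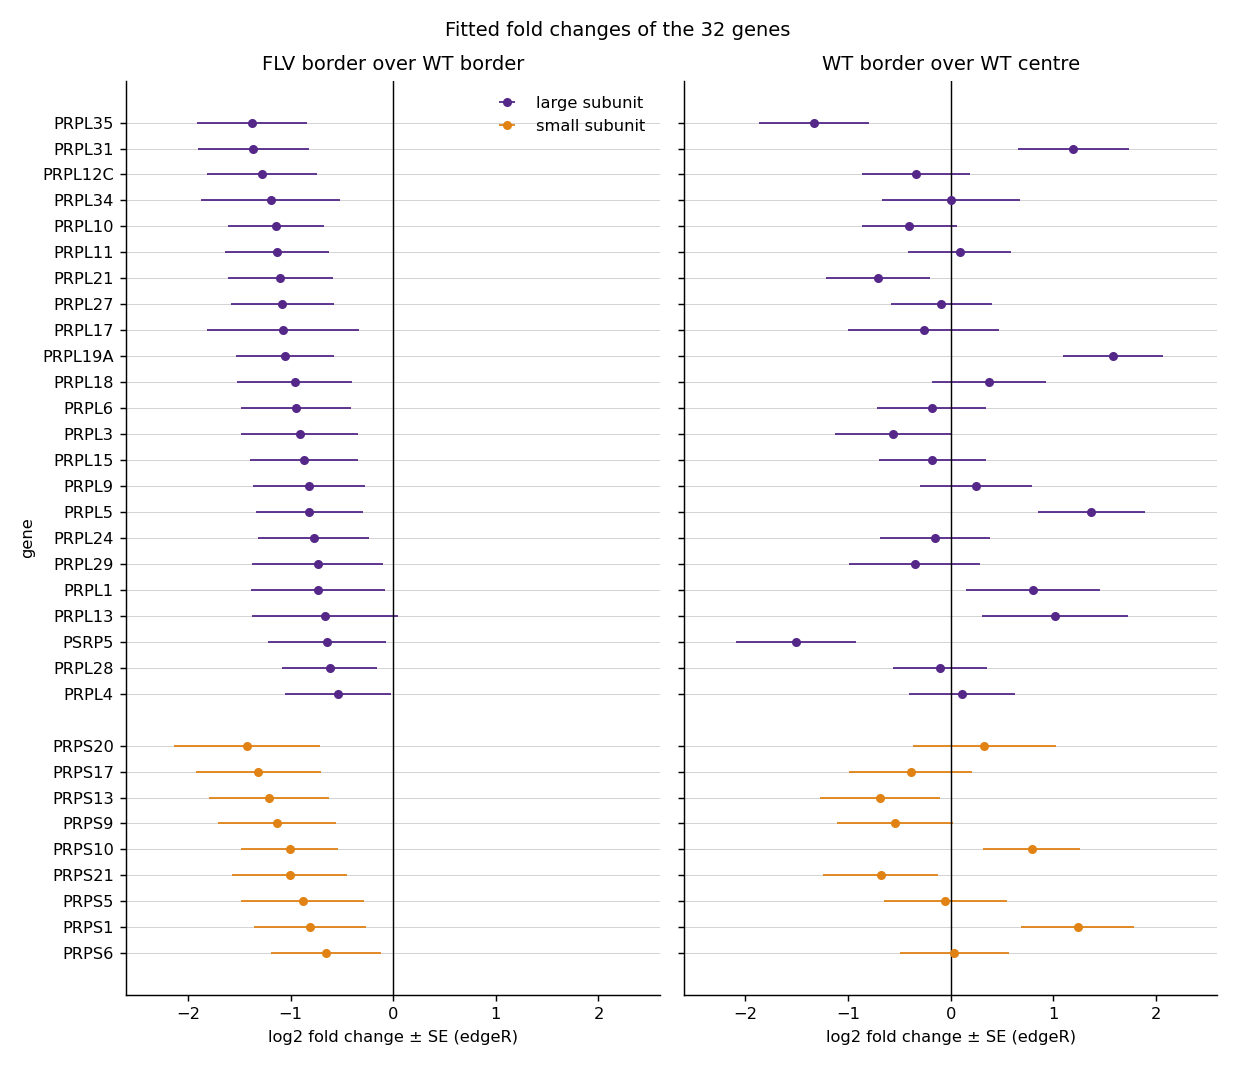
Log2 fold change with its standard error (edgeR) of the 32 genes in the mutant-labelled over the wild-type margin (left) and the wild-type margin over the centre (right), in the same order of genes. All points on the left lie between -1.43 and -0.54, while those on the right run from -1.51 to 1.58.

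The fold changes of the members lay close together in this comparison. Their standard deviation over the 32 genes was 0.24, against 0.84 over all genes tested. The latter include genes of far lower level, and genes of matched level were not compared. The value of 0.24 was also below the standard error of each single fold change. The genes share each library, and a shift common to them enters each standard error but not this standard deviation. That order is therefore no measure of how alike the genes responded. The small subunit had a median of -1.01 and the large subunit -0.94, a difference of -0.07 that lies within the spread between libraries. Without library 1 of the mutant-labelled margin this difference was 0.03. Scaling touched the size and the overlap. With library totals in place of TMM the median of all genes moved from 0.02 to 0.56 and that of the members from -0.98 to -0.45, so that the distance between both stayed at -1.01. All 32 fold changes were still negative, but only 14 of the 32 genes kept the groups apart, where 5.06% of all genes did so downward. Without library 1 of the wild-type margin the median was -0.69, and without library 2 of the wild-type margin -1.28.

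Summed levels of cell type markers are given beside this comparison. No marker of the 6 lists passed edgeR's test, where 1 mesophyll marker had an unadjusted p under 0.05 and DESeq2 called that gene alone lower, RBCS1A. The 4 mesophyll markers code for the Rubisco small subunit, 2 light-harvesting proteins and a carbonic anhydrase. They summed to 2050 and 6800 CPM in the mutant-labelled margin and 9470 and 20800 in the wild-type margin. All 4 had negative fold changes, but only 2 were without overlap. The light-harvesting gene CAB3 had 218 and 2560 CPM in the mutant-labelled margin and 1060 and 8170 in the wild-type margin. LHCB2.1 had 66.3 and 1180, and 235 and 3880, so both weigh most on the sums of library 2. The 4 phloem markers summed to 115 and 116 against 137 and 257 CPM, likewise all 4 negative. The 4 epidermis markers summed to 404 and 262 against 342 and 251 CPM, the 4 xylem markers to 38.8 and 30.6 against 26.7 and 27.5, the 4 guard cell markers to 12.8 and 19.5 against 8.31 and 19.7 and the 4 markers of dividing cells to 16.9 and 31.2 against 38.2 and 14.4. No marker was at 0 in any library. The part of these levels in the lower values of the ribosomal protein genes was not tested.

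The second comparison sets the margin of Col-0 leaves beside their centre. Here the members did not go one way: 18 of 32 had lower values in the margin, where 50.3% of all genes had, and the median log2 fold change was -0.10 against -0.02 over all genes. None passed edgeR's test, where 6.13% of all genes were called, 3% lower and 3.13% higher. Voom also called 0 members, where it called 3.93% of all genes. At an unadjusted p under 0.05, PRPL35 and PSRP5 were lower, against 15.2% of all genes, and PRPL5 and PRPL19A were higher, against 14.7%. DESeq2 called PRPL35 and PSRP5 lower and PRPL19A higher, at shares of 11.1 and 8.16% of all genes. The groups were apart for 4 genes lower in the margin and 6 higher, where 27.2 and 30.6% of all genes were. With library totals in place of TMM these counts were 0 lower and 27 higher, where 6.5 and 61.2% of all genes were, and 2 of 32 fold changes were negative, where 20.7% of all genes had them.

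The members with lower values in the margin were led by PSRP5 (AT3G56910, chromosome 3 from 21069411 to 21070356, - strand, 2 exons). It had 465 and 312 CPM in the wild-type margin against 1350 and 861 in the wild-type centre, a log2 fold change of -1.51 ± 0.58 (edgeR adjusted p = 0.126, DESeq2 adjusted p = 0.0148). PRPL35 had 272 and 159 CPM against 590 and 496, at -1.33 ± 0.53 (edgeR adjusted p = 0.136, DESeq2 adjusted p = 0.0331). PRPL21 (387 and 262 against 507 and 554 CPM) and PRPL10 were the other genes whose margin libraries were both below the centre, at -0.71 ± 0.51 and -0.40 ± 0.46.

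The members with higher values in the margin were led by PRPL19A (chromosome 4 from 9780224 to 9782183, + strand, 5 exons). It had 127 and 71.9 CPM in the wild-type margin against 30.6 and 36 in the wild-type centre, at 1.58 ± 0.48 (edgeR adjusted p = 0.0758, DESeq2 adjusted p = 0.0263). Its paralog PRPL19B had 234 and 153 against 74.8 and 120 CPM, at 0.99 ± 0.50 (edgeR adjusted p = 0.216). PRPL5 (AT4G01310, chromosome 4 from 543911 to 545566, - strand, 4 exons) had 412 and 253 against 99.8 and 157 CPM, at 1.37 ± 0.52 (edgeR adjusted p = 0.124). PRPL18, its partner on the 5S rRNA, had 332 and 197 against 130 and 278 CPM, so that the groups overlapped.

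PRPL31 had 250 and 120 against 60.1 and 102 CPM, at 1.20 ± 0.54 (edgeR adjusted p = 0.175). PRPL1, of the mobile stalk where tRNA leaves, was also apart, with 451 and 414 against 107 and 388 CPM, at 0.81 ± 0.65, a narrow gap to the second centre library. In the small subunit PRPS1 (AT5G30510, chromosome 5 from 11619000 to 11621298, - strand, 7 exons) had 940 and 589 against 291 and 357 CPM, at 1.24 ± 0.55 (edgeR adjusted p = 0.169). PRPS10 had 164 and 140 against 70.9 and 105 CPM, at 0.79 ± 0.47 (edgeR adjusted p = 0.283). PRPS21 had 213 and 127 against 171 and 374 CPM, at -0.68 ± 0.56 (edgeR adjusted p = 0.429), with the margin inside or below the range of the centre.

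The order of levels shifted with these values. Ranked per kb among the 32 genes, PRPS1 was number 9 in the wild-type margin and number 25 in the wild-type centre, and PRPL35 was number 19 in the wild-type margin and number 3 in the wild-type centre. By group means, 18 genes were highest in the wild-type centre and lowest in the mutant-labelled margin, 9 were highest in the wild-type margin and lowest in the mutant-labelled margin, and 5 were highest in the wild-type margin and lowest in the wild-type centre. The last set holds PRPL5, PRPL13, PRPL19A and PRPL1 of the large subunit and PRPS1 of the small subunit.

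This comparison moved with the centre libraries and with the scaling. The mapped share of reads was 70.9% in library 1 of the wild-type centre and from 83.3 to 88.9% in the other 5 libraries. Without library 2 of the wild-type centre the median of the members was 0.48 and PRPS21 stood at 0.08, and without library 1 of the wild-type centre the median was -0.22. With library totals alone the median of all genes moved to 1.24 and that of the members to 1.17, and 8 members were then called higher, among them PRPL5, PRPL19A, PRPL31, PRPS1 and PRPS10. This is a share of members below the 34.1% of all genes called higher with library totals. Some cell type markers passed edgeR's test. Dividing-cell markers summed to 38.2 and 14.4 CPM in the wild-type margin and 1.95 and 2.2 in the wild-type centre. KNOLLE and CDKB2;1 were called higher, while CYCA2;1 went the other way at -1.29 ± 0.88. KNOLLE had only 0.355 and 0.206 CPM in the wild-type centre, so its value rests on few counts. Mesophyll markers summed to 9470 and 20800 against 25600 and 69000, with 4 of 4 negative, 1 without overlap and 0 called. Their light-harvesting gene CAB3 had 993 CPM in library 1 and 30200 CPM in library 2 of the wild-type centre. Epidermis markers summed to 342 and 251 against 165 and 85.9 CPM, with ATML1 and PDF1 called higher and GL2 negative at -0.345 ± 0.647. PDF1 had only 0.0888 and 0.481 CPM in the wild-type centre, so its value rests on few counts. Xylem markers summed to 26.7 and 27.5 against 10.7 and 11.9 CPM, with CESA4 called higher. Phloem markers summed to 137 and 257 against 248 and 217 CPM and guard cell markers to 8.31 and 19.7 against 12.5 and 4.74, with 0 called by edgeR. DESeq2 called more of these markers, with CYCB1;1, IRX3, SEOR1 and HT1 also higher and RBCS1A, CA2 and SWEET11 lower. In the wild-type centre HT1 had only 0.178 and 0.206 CPM and CYCB1;1 only 0.267 and 0.412 CPM, so their values rest on few counts. The part of the marker levels in the result was not tested.

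Gene length went along with the fold change in the margin against the centre. As a description over the 32 genes, which share libraries, Spearman's rho between fold change and length was 0.43, with 0.34 in the large subunit and 0.68 in the small subunit, and over all genes tested it was 0.28. The short genes PSRP5 (693 bases) and PRPL35 (710 bases) had the lowest values, and the longest member, PRPS1 (1562 bases), was among the highest. Short genes also went the other way or nowhere, with PRPL31 (672 bases) at 1.20 and the shortest member, PRPL28 (626 bases), at -0.11. A fit with an offset for the length trend of every library took the median of the members from -0.10 to 0.26 and left 8 of 32 with negative values, where 51% of all genes had them. PSRP5 then stood at -0.96 and PRPL35 at -0.79, PRPL19A at 1.71, PRPL31 at 1.80 and PRPS1 at 1.10, and 0 members were called, where 1.63% of all genes were. For the mutant-labelled over the wild-type margin rho was 0.28 over the members and 0.08 over all genes. The offset left the median at -0.94 and all 32 values negative, where 53.1% of all genes were, and 0 members were called, where 0.0137% of all genes were.

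**Figure D4:**
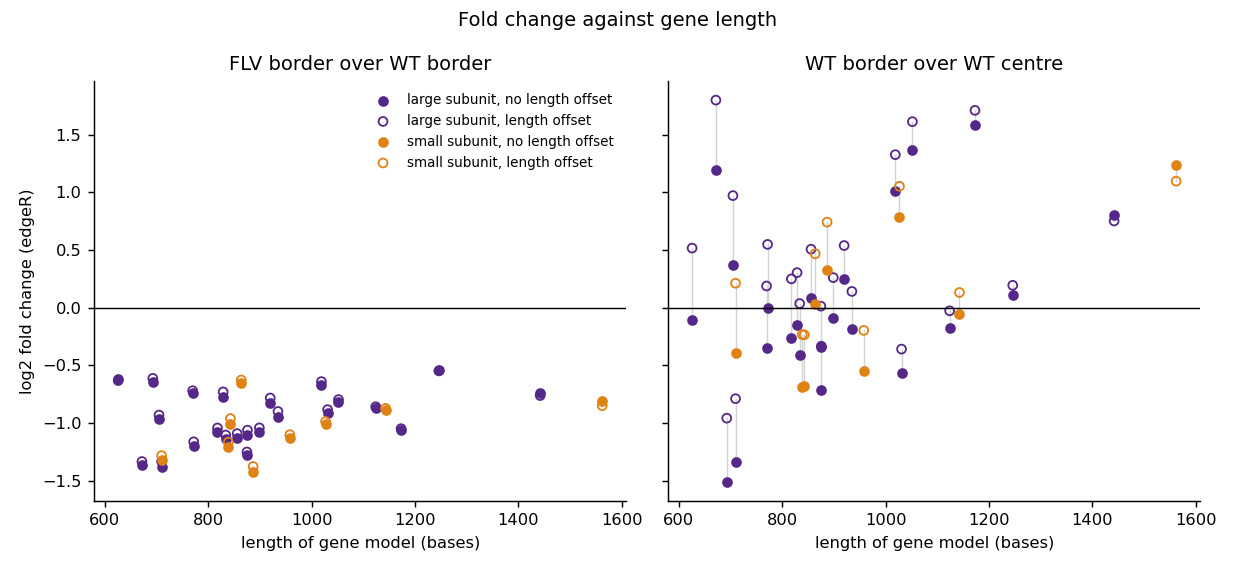
Log2 fold change (edgeR) of the 32 genes against the length of the gene model in bases, in both comparisons, without (filled) and with (open) an offset for length, joined by a grey line. On the left the offset moves the points little and all stay below 0, and on the right it raises the short genes, with PRPL31 going from 1.20 to 1.80.

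The median level per kb of the small subunit genes over that of the large subunit genes was 0.974 and 1 in the mutant-labelled margin, 1.11 and 1.18 in the wild-type margin and 0.876 and 1.36 in the wild-type centre. The centre libraries thus enclose all 4 margin libraries. The 9 small subunit genes, 28.1% of the members, held 27.1 and 28.2% of the members' CPM in the mutant-labelled margin, 29.6 and 28.6% in the wild-type margin and 20.5 and 30.2% in the wild-type centre. In the wild-type margin over the centre the median fold change was -0.05 for the small and -0.11 for the large subunit. That difference of 0.06 was -0.46 without library 1 of the wild-type centre and -0.20 without library 2 of the wild-type margin.

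Other genes of the plastid translation machinery were taken from lists. A further 8 nuclear genes for plastid ribosomal proteins (paralogs and plastid-specific proteins) had 8 of 8 negative values in the mutant-labelled over the wild-type margin, where 48.4% of all genes had, and 8 of 8 without overlap, where 18.7% of all genes were. Their median was -0.83. Neither edgeR nor DESeq2 called a gene of this list or of the 3 lists that follow in this comparison. At an unadjusted p under 0.05 PRPL12A alone was lower, where 2.57% of all genes were. PRPL12A, given above, and PSRP4 had the smallest p. The lowest was PSRP4, a small protein of the small subunit, with 94.2 and 123 against 361 and 236 CPM, at -1.46 ± 0.69 (edgeR adjusted p = 0.931). Of 11 plastid translation factor genes, 11 were negative and 6 without overlap, with a median of -0.52. The initiation factor gene IF1 stood at -0.99 ± 0.47 (edgeR adjusted p = 0.931) and that of the ribosome recycling factor, RRF, at -0.73 ± 0.47 (edgeR adjusted p = 1). The gene of elongation factor EF-Tu had 507 and 573 against 1190 and 869 CPM, at -0.93 ± 0.60. Of 11 genes for plastid ribosome assembly and rRNA processing, 9 were negative and 0 were without overlap, with a median of -0.05. In this list the GTPase gene OBGC had 0.67 ± 0.57 and the GTPase gene BPG2 0.45 ± 0.62. The 26 plastid gene models for the ribosome's plastid-encoded proteins had a median of 0.21, with 7 negative and rpl20 at 0.93 ± 0.49 (edgeR adjusted p = 0.981). Of these models 2 were lower and 1 higher without overlap, where 18.7 and 19.3% of all genes were. They summed to 2340 and 4410 CPM in the mutant-labelled margin against 2990 and 4380 in the wild-type margin. Copies of a gene, such as rpl2A and rpl2B, and the parts of rps12 count as separate models. All these medians stand beside 0.02 for all genes.

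In the wild-type margin over the centre the medians of these lists had different signs. The 8 further ribosomal protein genes had a median of 0.06, with 4 negative and 0 called by edgeR or DESeq2 or at an unadjusted p under 0.05, led by PRPL19B and by PSRP2 at 0.89 ± 0.50 (edgeR adjusted p = 0.256). The 11 translation factor genes had a median of 1.32. None was called by edgeR. At an unadjusted p under 0.05, 7 were higher and 1 lower, where 14.7 and 15.2% of all genes were. DESeq2 called EF-G, EF-Ts and APG3 higher and EF-Tu lower, where it called 8.16 and 11.1% of all genes. By edgeR EF-G stood at 2.22 ± 0.57 (283 and 379 against 95.2 and 47.1 CPM, edgeR adjusted p = 0.0527) and APG3, a peptide release factor, at 1.69 ± 0.48 (adjusted p = 0.0651, edgeR). EF-Tu went the other way, with 1190 and 869 against 2880 and 2560 CPM, at -1.40 ± 0.61. Of the 11 assembly genes, 11 had higher values without overlap, where 30.6% of all genes were, with a median of 1.81. EdgeR called 3 higher and DESeq2 7, where they called 3.13 and 8.16% of all genes higher. The 3 were RNJ, a plastid ribonuclease J, at 2.71 ± 0.49 (edgeR adjusted p = 0.0312), RAP, a protein for the maturation of 16S rRNA, at 2.41 ± 0.49 (adjusted p = 0.0368, edgeR) and BPG2, at 3.62 ± 0.76 (edgeR adjusted p = 0.038). BPG2 had 2.9 and 6.57 CPM against only 0.267 and 0.481, so its value rests on few counts. With the length offset all 3 missed the threshold, at adjusted p of 0.0513, 0.0561 and 0.0592, and the median of the list was 1.40. These genes are 1495 to 3103 bases long, mostly longer than any member. The 26 plastid-encoded models had a median of -0.28 with 17 negative. Of these models 8 were lower and 7 higher without overlap, where 27.2 and 30.6% of all genes were. EdgeR called 1 lower and DESeq2 4, where they called 3 and 11.1% of all genes lower. The 1 was rpl33, with 105 and 111 against 931 and 523 CPM, at -2.75 ± 0.59 (edgeR adjusted p = 0.0388, 0.134 with the offset). With the offset the median of the list was 0.38.

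**Figure D5:**
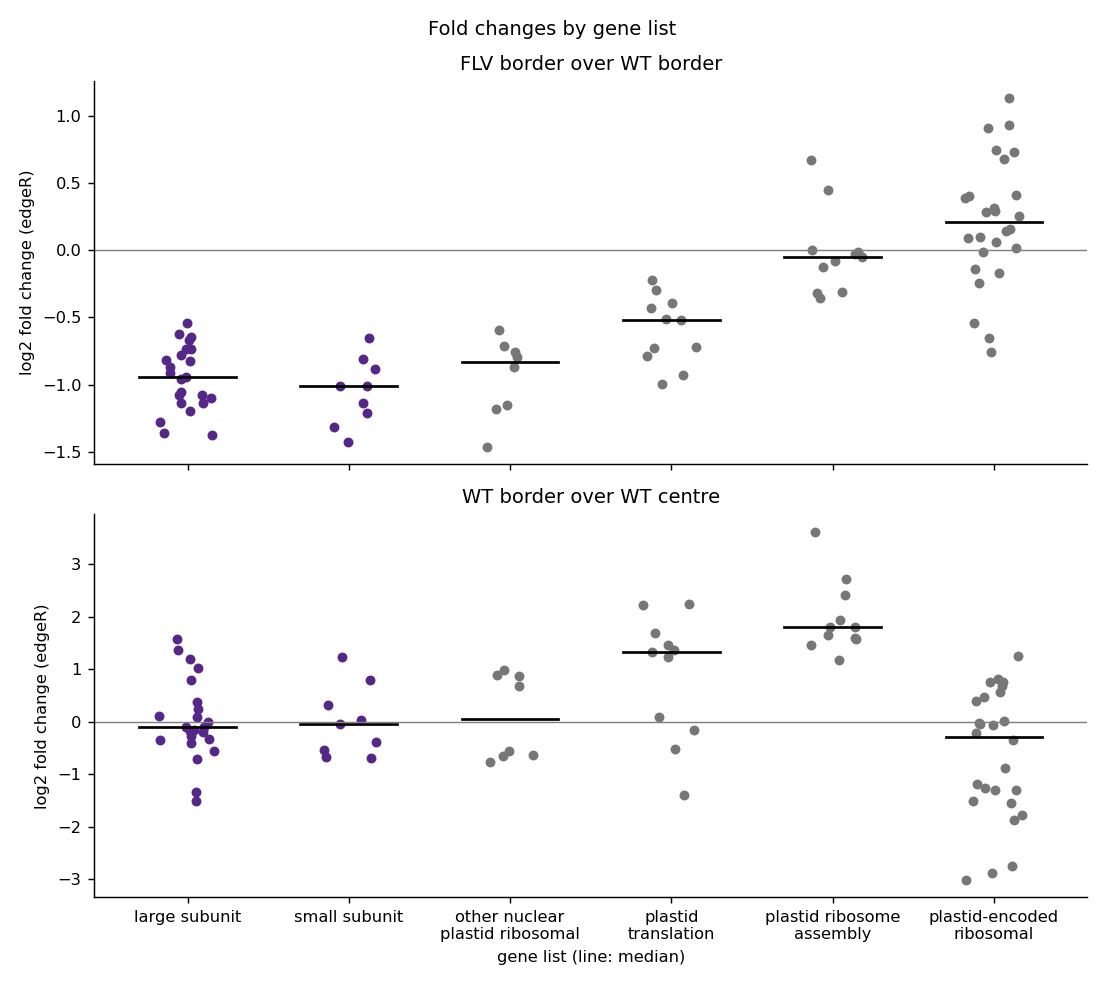
Log2 fold changes (edgeR) of single genes by list in the mutant-labelled over the wild-type margin (top) and the wild-type margin over the centre (bottom), with a line at each median. In the top panel the nuclear ribosomal protein genes lie below 0 and the plastid-encoded models around a median of 0.21. In the bottom panel the assembly genes lie above 0, with a median of 1.81.

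The 250 bases upstream of each annotated gene start in TAIR10.1 were searched on both strands for short motifs known from plant ribosomal protein and photosynthesis genes. The site II letters TGGGCC or TGGGCT were found in 11 of 32 members (34.4%), against 19.2% of all 27443 windows of the same length. They were in 6 of 9 small subunit windows and 5 of 23 large subunit windows. The telo-box AAACCCTA was in 3 members (9.38%, against 4.49% of all windows), the G-box CACGTG in 2 (6.25% against 6.49%), CCAATC in 4 (12.5% against 10.2%) and GATAAG in 7 (21.9% against 12.3%). TGGGCCCA counts on both strands, and no other pair of these motifs was counted jointly. These shares are descriptions and the matches are not shown to be used.

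Windows of 3 members whose values stand out above, and which overlap no other annotated gene, are given 5′ to 3′ on the strand of the gene, with the site II letters of either strand in capitals. PRPL19A is the member with the highest fold change in the wild-type margin over the centre (chr4:9779974-9780223, + strand). PRPS10 is the lowest small subunit gene per kb and was high in the wild-type margin alone (chr3:4221667-4221916, - strand). PRPL35 has the lowest fold change of the large subunit in the mutant-labelled over the wild-type margin (chr2:10241625-10241874, + strand) and holds no such letters in this window.
PRPL19A: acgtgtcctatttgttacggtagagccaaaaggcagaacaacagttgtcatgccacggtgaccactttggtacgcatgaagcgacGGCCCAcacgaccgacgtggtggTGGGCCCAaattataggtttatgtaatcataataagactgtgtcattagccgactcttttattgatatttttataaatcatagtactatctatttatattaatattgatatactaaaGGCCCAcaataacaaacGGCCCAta
PRPS10: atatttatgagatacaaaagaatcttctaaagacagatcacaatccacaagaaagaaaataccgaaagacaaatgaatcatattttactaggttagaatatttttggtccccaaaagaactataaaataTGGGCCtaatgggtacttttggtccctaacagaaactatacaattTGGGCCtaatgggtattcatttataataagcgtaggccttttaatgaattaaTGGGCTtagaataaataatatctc
PRPL35: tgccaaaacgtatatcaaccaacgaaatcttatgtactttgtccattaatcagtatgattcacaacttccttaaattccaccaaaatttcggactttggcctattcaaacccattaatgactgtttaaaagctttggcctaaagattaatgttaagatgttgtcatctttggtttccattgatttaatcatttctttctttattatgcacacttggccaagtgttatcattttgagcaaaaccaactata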

How the data were processed

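Total RNA was depleted of rRNA and sequenced as stranded single-end Ion Proton libraries, per the labels. The deposited values are raw counts of reads per gene model with its length, written by a program named sam2pkm, per the file headers, on the build TAIR10, per the submitters' processing notes. The aligner and the rules for strand and for reads that fit several genes are not given in the sources used here. The counts of each file sum to its header's mapped reads. The 15 rRNA loci were left out and filterByExpr kept 21852 genes, with TMM scaling of library sizes. The test was a quasi-likelihood fit (edgeR 4.0.16, glmQLFit with robust=TRUE, glmQLFTest, in R 4.3.3) of 6 libraries and 3 group means, leaving 3 residual degrees of freedom; its common coefficient of variation was 0.456. Tests were two-sided, and p-values over the 21852 genes received Benjamini-Hochberg adjustment, at a threshold of 0.05. An exact permutation test of 2 against 2 libraries cannot go below p = 0.333. DESeq2 1.42.0 and limma 3.58.1 (voom) were alternatives, as were other scalings, no filter, rRNA kept, 4 libraries, a replicate block, each library left out, robust=FALSE and a length offset (loess of log2 CPM on log2 length, span 0.5). The model was tested on simulated counts with the coefficient of 0.456 for every gene and 50 genes changed at each size. It called 0% of the genes changed 2-fold in either comparison. Of those changed 4-fold it called 16% in the mutant-labelled over the wild-type margin and 14% in the wild-type margin over the centre. A gene that was not called here may thus differ 2-fold. The members, lists, tests and named genes were chosen with earlier results of these data known. Named with full values in each comparison were the 5 large and 3 small subunit genes with the smallest p, the extremes of fold change and any gene called. Other members are given as examples chosen after their values were seen. From each list of the pathway, the rule names up to 2 by smallest p and all called, and others named are likewise examples. Upstream windows and coding identities come from TAIR10.1 (Biopython 1.88). Protein sequences were not used here. A result of 1 plastid gene that the naming rule selects is not reported here.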

Additional observations from a re-analysis of the deposited data

How the results depend on the processing

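In FLV border over WT border, 0 of the 32 genes were called in each of the 17 alternatives and all 32 fold changes stayed negative. The median moved to -0.45 with library totals and lay between -1.28 and -0.69 with a library left out. The small minus large difference, -0.07, lay between -0.202 and 0.029 with a library left out. Of all genes, 13 were called, 23 with no filter, 0 with the replicate block (1313 at an unadjusted p under 0.05), 194 with DESeq2 and 3 with the length offset, and from 0 to 29 with a library left out. In WT border over WT centre the median was -0.10, 1.17 with library totals and from -0.37 to 0.48 with a library left out. Library totals called 8 of the 32 members higher, where 34.1% of all genes were. DESeq2 called 1 member higher and 2 lower, where 8.16 and 11.1% of all genes were. The median of 0.48 was that without library 2 of WT centre. The small minus large difference, 0.06, was 0.14 with the replicate block, 0.15 with voom, -0.048 with the length offset and from -0.46 to 0.13 with a library left out. PRPS21 turned positive with library totals (0.65) and ranged from -1.079 to 0.082 with a library left out, where the positive value came from dropping the second WT centre library. Of all genes, 1339 were called, 7798 with library totals, 2055 with no filter, 4215 with DESeq2, 858 with voom, 357 with the length offset, 337 with only the 4 libraries compared and from 1 to 3260 with a library left out. Fits that drop a library take the spread of the remaining one of that group from the other groups. The cause of these moves was not tested. Deviations of same-numbered libraries correlated across genes at 0.37 between FLV border and WT border, 0.05 between FLV border and WT centre and 0.08 between WT border and WT centre. The numbers are not stated to pair libraries. No member was called in the main fit or with the block, so calls of members cannot show whether the block matters. Over all genes in FLV border over WT border, the 13 called became 0 with it.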
